A study of Mus musculus with 12 samples.

Results

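The genes described here handle iron in the cell: they reduce it, import it, store it, export it or control how it is used. They are 10 of the 13935 genes listed in a table of neutrophil expression and were found by their symbols. Steap4 and Steap3 encode metalloreductases, Tfrc, Slc11a1 and Slc11a2 encode importers and metal transporters, Fth1 and Ftl1 encode the ferritin subunits, Aco1 and Ireb2 encode the iron regulatory proteins, and Slc40a1 encodes the exporter ferroportin. Steap4 was placed in the set because it is among the genes that granulocyte colony-stimulating factor (G-CSF) raises most. Its response to G-CSF is therefore given as a description with no test. The other 9 genes were taken by name, with earlier results of these data known.

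The study sequenced total RNA from mouse bone marrow neutrophils, sorted as CD45+CD11b+Ly6G+ cells, in 12 libraries. G-CSF is the cytokine that drives neutrophil production; it signals through STAT3, and Socs3 encodes a feedback inhibitor of that signalling. In 3 libraries, cells labelled LysMCre Socs3fl/fl were kept for 8 h with 10 ng/ml G-CSF, and in 3 more, cells labelled Socs3fl/fl were kept with the same dose. The remaining 3 LysMCre Socs3fl/fl and 3 Socs3fl/fl libraries came from cells kept for 8 h without G-CSF. All 4 groups carry the floxed Socs3 alleles, and the groups differ in Cre, which is expressed from the lysozyme 2 locus and is meant to act in myeloid cells. The groups are called LysMcre-labelled and floxed. The age and sex of the mice were not given in the sources used here. Whether replicate libraries stem from different mice is not stated in the labels, so a p-value here reflects library-to-library spread that may be technical.

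Values are normalized counts, reads per gene divided by 1 size factor per library, and depth was 19495754 to 26472118 reads per library. Socs3 was not lower in the LysMcre-labelled libraries: it averaged 37335 ± 1219 normalized counts in LysMcre-labelled and 19504 ± 1635 in floxed libraries with G-CSF, and 292 ± 34.5 in LysMcre-labelled and 225 ± 23.1 in floxed libraries without it (SD, n = 3 each). Values summed over a whole gene cannot show a deleted exon. In the group labelled LysMcre with G-CSF the sample titles carry both the words G-CSF and untreated, and the treatment was taken from the descriptions. Those titles name LysMcre without Socs3fl/fl, and the descriptions name SOCS3 KO. Lyz2, whose locus carries Cre, averaged 569 ± 64.8 normalized counts in LysMcre-labelled and 46227 ± 2464 in floxed libraries with G-CSF, and 6053 ± 493 in LysMcre-labelled and 222593 ± 3235 in floxed libraries without it (SD, n = 3 each). All 10 neutrophil markers and sort antigens were in the table. Their summed level was 1771217 to 1964351.5 normalized counts in LysMcre-labelled and 1601771 to 1857263 in floxed libraries with G-CSF, and 1373259.8 to 1571100.5 in LysMcre-labelled and 1427663.5 to 1591429 in floxed libraries without it. S100a8 and S100a9 carried most of that sum, and the markers did not move as one: with G-CSF, 5 were higher and 4 lower in each genotype, Camp and Ngp among the lower and Cxcr2 among the higher.

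Iron enters most cells bound to transferrin, which is taken up by the transferrin receptor, released in acid endosomes, reduced by STEAP enzymes and moved into the cytosol by a divalent metal transporter. Iron that is not used is kept inside ferritin, a shell of heavy and light subunits of which the heavy subunit oxidises iron, or leaves through ferroportin. The iron regulatory proteins bind short hairpins, iron-responsive elements, in target mRNAs when iron is scarce; in the 5′ untranslated region this blocks translation and in the 3′ untranslated region it protects the mRNA. Neutrophils also use the phagosomal transporter NRAMP1, the product of Slc11a1, to take metal away from engulfed microbes.

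Levels of mRNA do not show how much ferritin or ferroportin was translated. The hairpins are shown because the products of Aco1 and Ireb2 bind them, and matches were found in 4 of the 10 genes. They were searched in the GENCODE M21 transcripts of build GRCm38 (mm10), on the sense strand, as the letters CNNNNNCAGTGN in which the 5 bases on each side of the loop pair, with G-T pairs allowed. Capitals mark the loop. In the 5′ untranslated region lie Fth1 at chr19:9982732-9982760 on the plus strand, Ftl1 at chr7:45459779-45459807 on the minus strand and Slc40a1 at chr1:45925465-45925493 on the minus strand. In the 3′ untranslated region, Tfrc holds 4 of them on the plus strand, at chr16:32631219-32631247, chr16:32631598-32631626, chr16:32631663-32631691 and chr16:32631710-32631738.
Fth1 5′ element: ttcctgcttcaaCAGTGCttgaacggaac
Ftl1 5′ element: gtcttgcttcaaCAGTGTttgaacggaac
Slc40a1 5′ element: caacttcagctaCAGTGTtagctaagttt
Tfrc 3′ element 1: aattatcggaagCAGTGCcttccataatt
Tfrc 3′ element 2: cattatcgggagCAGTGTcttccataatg
Tfrc 3′ element 3: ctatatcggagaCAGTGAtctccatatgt
Tfrc 3′ element 4: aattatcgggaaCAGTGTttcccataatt
Such an element was found in the 5′ untranslated region of 3 of the 10 genes, against 28 of 20474 genes with an annotated one (0.137%). In the 3′ untranslated region it was found in 1 of the 10, against 127 of 20840 genes (0.609%). A match is a run of letters and not a measured site, and no match says only that these letters are not in the annotated region. Hairpins with an unpaired base within those 5 pairs were not searched. The other genes of the set, and Tfrc, may therefore hold elements of another shape.

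Steap4 (ENSMUSG00000012428.9, chr5:7960457-7982213, plus strand, mm10) encodes a membrane metalloreductase of the STEAP family that reduces iron and copper and is known from mouse fat and liver as a gene that inflammatory cytokines induce. It had 33725, 35087 and 36578 normalized counts in LysMcre-labelled libraries with G-CSF, and 17621, 20021 and 18781 in floxed libraries with G-CSF. Without G-CSF it had 78.9, 89.4 and 86.3 normalized counts in LysMcre-labelled libraries and 52.2, 61.7 and 52.7 in floxed libraries. Every library with G-CSF was far above every library without it, and within each treatment every LysMcre-labelled library was above every floxed one. It averaged 35129.9 ± 1427 normalized counts in LysMcre-labelled and 18808 ± 1199.9 in floxed libraries with G-CSF, and 84.9 ± 5.41 in LysMcre-labelled and 55.5 ± 5.33 in floxed libraries without it (SD, n = 3 each).

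**Figure D1:**
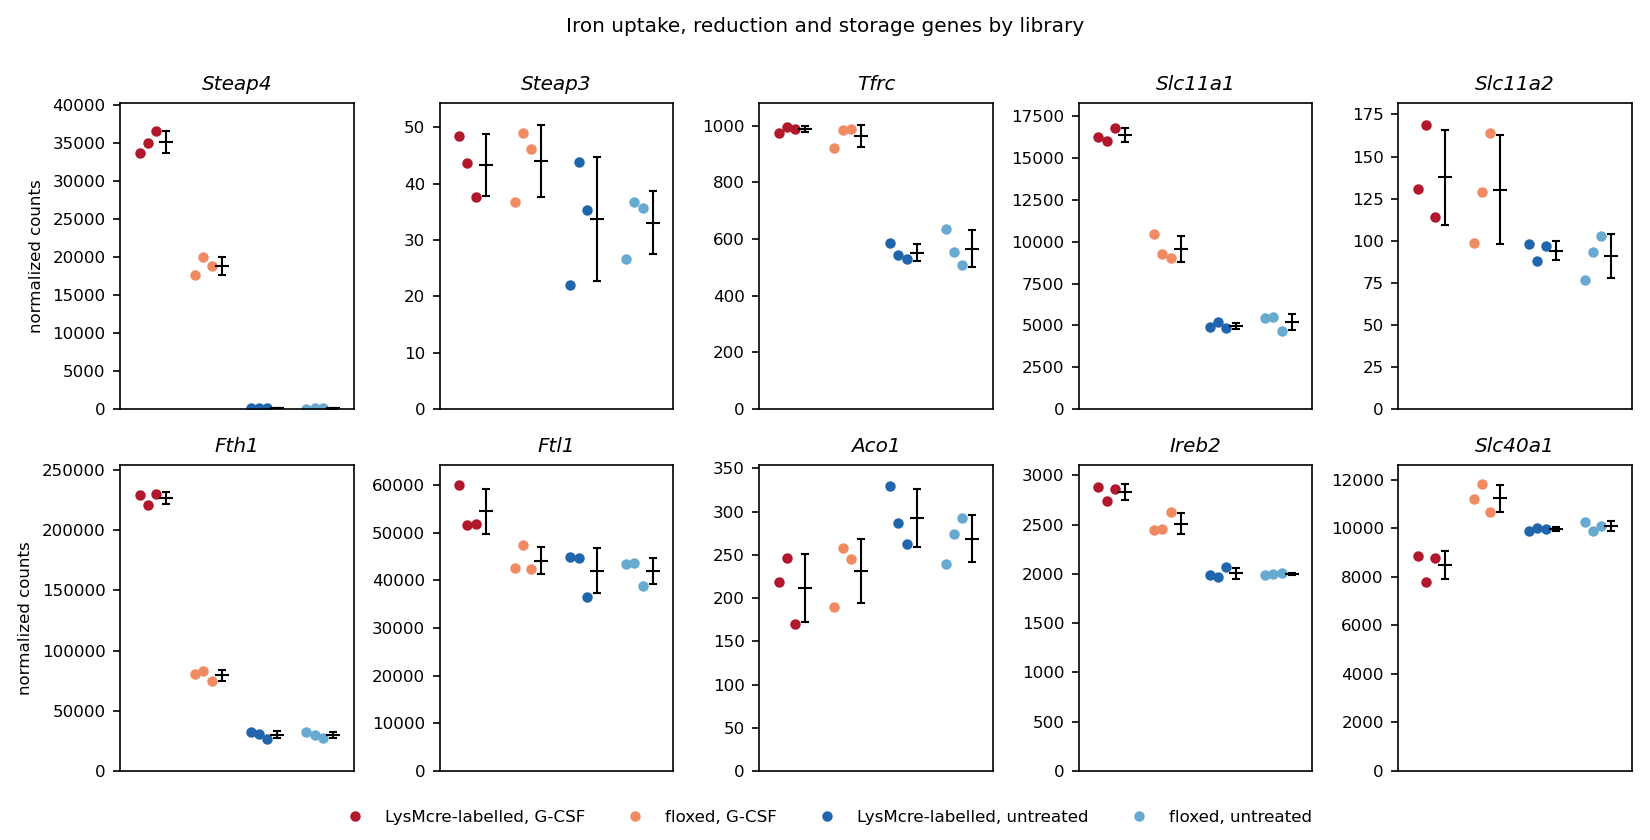
Normalized counts of the 10 genes in each library on linear axes that start at 0, with 1 point per library and the mean ± SD of each group (n = 3) beside it. With G-CSF, all 3 LysMcre-labelled libraries lie above all 3 floxed ones for Steap4, Slc11a1, Fth1, Ftl1 and Ireb2. They lie below them for Slc40a1, and Steap3, Tfrc, Slc11a2 and Aco1 overlap there.

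The mean of Steap4 with G-CSF was 414 times the untreated mean in LysMcre-labelled libraries and 339 times in floxed libraries, given without a test because this response chose the gene. Ordered by the log2 difference of log2(value + 1), which understates changes of low genes, Steap4 held rank 7 of 13915 genes in LysMcre-labelled libraries (8.68) and rank 4 in floxed libraries (8.38). Its neighbours were Gm11430 (8.70) and Entpd3 (8.41) in LysMcre-labelled libraries, and Igfbp6 (8.84) and Wfdc17 (8.28) in floxed libraries. The genotype contrasts were not used to choose it, although they use the same libraries. With G-CSF, Steap4 was 1.87-fold higher in LysMcre-labelled than in floxed libraries (log2 0.90, SE 0.07, limma adjusted p = 2.21e-07). Without G-CSF it was 1.52-fold higher (log2 0.61, SE 0.07, limma adjusted p = 0.00173), the 1 gene of the 10 to pass 0.05 there, where 0.115% of all genes passed (0.0647% higher and 0.0503% lower). That call was lost with edgeR on the recovered reads (log2 0.61). It was also lost in a fit of the untreated groups alone (log2 0.61, limma adjusted p = 0.99). The call held in 21 of 23 alternatives. Among these were the fits that left out a G-CSF library. Such libraries are not part of this contrast, and the log2 difference stayed at 0.61.

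The promoter of Steap4 is shown because the gene is the one that responds to G-CSF so strongly. Its 235 bases, chr5:7960222-7960456 on the plus strand, come from RefSeq (GRCm38.p6) and end before the annotated transcript; capitals mark the single match to the STAT letters TTCNNNGAA, whose first base lies 116 bases before the RefSeq start.
Steap4 promoter: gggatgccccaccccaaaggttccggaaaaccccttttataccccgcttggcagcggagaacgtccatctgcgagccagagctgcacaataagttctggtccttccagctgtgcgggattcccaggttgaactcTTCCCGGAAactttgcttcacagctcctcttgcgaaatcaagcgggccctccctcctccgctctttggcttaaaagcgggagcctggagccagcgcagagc
The RefSeq table held 13 promoter windows for 8 of the 10 genes, and Steap4's was 1 of the 13 with the STAT letters, against 2306 of 32851 windows of all genes (7.02%). The letters TGACNNNGC of the antioxidant response element were in 0 of the 13 windows, against 10.2% of all windows, and TGANTCA of AP-1 in 0 of 13, against 6.75%. Both strands were searched in 250 bases before each start, and the motifs can overlap. The letters were not tied to any binding measured here.

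The genes whose pattern over the 12 libraries was most like that of Steap4 were found by the root mean square difference between log2(value + 1) profiles centred on the floxed untreated mean, among 10524 genes. Wfdc17 was nearest, at 0.23, and averaged 71897 ± 3676 normalized counts in LysMcre-labelled and 43566 ± 3730.3 in floxed libraries with G-CSF, against 229 ± 39.8 in LysMcre-labelled and 141 ± 25.9 in floxed libraries without it (SD, n = 3 each). Tgm1, a transglutaminase, followed at 0.49, Igfbp6, an insulin-like growth factor binding protein, at 0.51, Gm11430 at 0.52 and Sult6b2 at 0.61. Like Steap4, the 5 genes were chosen on these libraries, so their likeness is a description.

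Steap3 (ENSMUSG00000026389.16, chr1:120190757-120272705, minus strand), the endosomal ferric reductase best known from red cell precursors, was the lowest of the 10 genes. It had 48.5, 43.6 and 37.6 normalized counts in LysMcre-labelled and 36.8, 49.0 and 46.1 in floxed libraries with G-CSF, and 22.1, 43.8 and 35.3 in LysMcre-labelled and 26.6, 36.8 and 35.8 in floxed libraries without it. The groups overlapped in every comparison. The log2 difference with G-CSF was 0.39 in LysMcre-labelled libraries (SE 0.25, limma adjusted p = 0.179) and 0.40 in floxed libraries (SE 0.25, limma adjusted p = 0.195). In all libraries, 3 reads were worth 2.57 to 3.54 normalized counts.

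Tfrc (ENSMUSG00000022797.16, chr16:32608920-32632794, plus strand), the transferrin receptor that imports transferrin-bound iron, rose with G-CSF in both genotypes. It had 975, 997 and 988 normalized counts in LysMcre-labelled and 919.7, 985 and 989.6 in floxed libraries with G-CSF. Untreated, it had 586, 542 and 528 in LysMcre-labelled and 636, 554 and 507 in floxed libraries. All 6 libraries with G-CSF were above all 6 without it, and the genotypes overlapped within each treatment. Tfrc was 1.79-fold higher with G-CSF in LysMcre-labelled libraries (log2 difference 0.84, SE 0.08, limma adjusted p = 1.36e-07) and 1.71-fold higher in floxed libraries (log2 0.77, SE 0.08, limma adjusted p = 6.26e-07). The LysMcre-labelled response minus the floxed response was 0.06 (SE 0.11, limma adjusted p = 0.749).

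Slc11a1 (ENSMUSG00000026177.11, chr1:74375195-74386062, plus strand), which encodes the phagosomal metal transporter NRAMP1, rose with G-CSF in both genotypes and by more in LysMcre-labelled libraries. It had 16267, 16001 and 16834 normalized counts in LysMcre-labelled libraries with G-CSF and 10466, 9282 and 9009.5 in floxed libraries with G-CSF. Without G-CSF it had 4903, 5173 and 4846 in LysMcre-labelled libraries and 5452, 5523 and 4666 in floxed libraries. The 4 groups fell into 3 levels: LysMcre-labelled with G-CSF, floxed with G-CSF, and both untreated groups, which overlapped. Slc11a1 was 3.29-fold higher with G-CSF in LysMcre-labelled libraries (log2 difference 1.72, SE 0.07, limma adjusted p = 9.45e-12) and 1.84-fold higher in floxed libraries (log2 0.88, SE 0.07, limma adjusted p = 5.21e-08). The difference of these responses was 0.84 (SE 0.10, limma adjusted p = 2.3e-05). With G-CSF, LysMcre-labelled libraries were 1.71-fold above floxed ones (log2 0.77, SE 0.07, limma adjusted p = 6.26e-07).

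Monocytes and macrophages also express Slc11a1 and Slc40a1, and in bulk samples fewer cells of a type and less RNA per cell cannot be told apart. All 12 monocyte and macrophage markers were in the table and none was at 0. Their summed level was 12305 to 14879 normalized counts in LysMcre-labelled and 15195 to 18205 in floxed libraries with G-CSF, and 19628 to 21774 in LysMcre-labelled and 20562 to 21092 in floxed libraries without it. The part of such cells in the levels of Slc11a1 and Slc40a1 was not tested. The summed level of the 8 B and T cell markers, all in the table, was 2359 to 3004 normalized counts in LysMcre-labelled and 2407 to 3209.7 in floxed libraries with G-CSF, and 3005 to 3821 in LysMcre-labelled and 2630.4 to 4128 in floxed libraries without it.

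Slc11a2 (ENSMUSG00000023030.16, chr15:100387898-100425072, minus strand), which encodes DMT1, the transporter that moves iron from the endosome to the cytosol, was low and variable. The antisense gene Gm5475 overlaps Slc11a2 and has no values of its own here. Without a strand setting its reads cannot be told from those of Slc11a2. Slc11a2 had 130.6, 169 and 114 normalized counts in LysMcre-labelled libraries with G-CSF, against 97.8, 87.7 and 96.6 in LysMcre-labelled libraries without it, and these groups did not overlap. In floxed libraries it had 98.6, 129 and 164 with G-CSF, against 76.7, 93.4 and 103 without it, and these groups overlapped. The log2 difference was 0.53 in LysMcre-labelled libraries (SE 0.19, limma adjusted p = 0.0224) and 0.50 in floxed libraries (SE 0.19, limma adjusted p = 0.039). The first call was lost in 3 of 23 alternatives: with equal totals (log2 0.27), without LysMcre-labelled untreated replicate 2 (0.48) and without LysMcre-labelled G-CSF replicate 2 (0.37). The second was lost in 8 of 23: with equal totals (0.40), quantile normalization (0.44) and TMM (0.48), in a fit of the floxed groups alone (0.50), without floxed untreated replicate 1 (0.38) or 2 (0.52) and without floxed G-CSF replicate 2 (0.49) or 3 (0.32).

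The ferritin subunits parted: the heavy subunit mRNA rose several-fold with G-CSF and the light subunit mRNA moved little. Fth1 (ENSMUSG00000024661.7, chr19:9980598-9985098, plus strand, mm10), the subunit that oxidises iron, had 229139.5, 221028 and 230142 normalized counts in LysMcre-labelled libraries with G-CSF and 80159.7, 83428 and 74555 in floxed libraries with G-CSF. Without G-CSF it had 32298, 30944 and 26976 in LysMcre-labelled libraries and 32086, 29908 and 27411 in floxed libraries. Every LysMcre-labelled G-CSF library lay above every floxed G-CSF library, every floxed G-CSF library lay above all untreated ones, and the untreated genotypes overlapped. Fth1 was 7.56-fold higher with G-CSF in LysMcre-labelled libraries (log2 difference 2.92, SE 0.08, limma adjusted p = 1.39e-13). In floxed libraries it was 2.67-fold higher (log2 1.41, SE 0.08, limma adjusted p = 1.48e-09). The difference of the responses was 1.50 (SE 0.12, limma adjusted p = 5.1e-07), and with G-CSF the LysMcre-labelled libraries were 2.86-fold above the floxed ones (log2 1.52, SE 0.08, limma adjusted p = 3.56e-09). All of these calls held in every alternative run.

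Ftl1 (ENSMUSG00000050708.16, chr7:45457944-45459884, minus strand, mm10), the light subunit that helps iron form a mineral core, had 59984, 51605 and 51802 normalized counts in LysMcre-labelled and 42684, 47372 and 42322 in floxed libraries with G-CSF. Untreated libraries had 44993, 44616 and 36555 in LysMcre-labelled and 43423, 43624 and 38763 in floxed libraries. Only the LysMcre-labelled G-CSF group stood clear of the other 3. Ftl1 was 1.30-fold higher with G-CSF in LysMcre-labelled libraries (log2 difference 0.38, SE 0.09, limma adjusted p = 0.00226), a call lost with equal totals (0.11) and turned in sign by quantile normalization (-0.14). In floxed libraries the difference was 0.07 (SE 0.09, limma adjusted p = 0.545). With G-CSF, LysMcre-labelled libraries were 1.23-fold above floxed ones (log2 0.30, SE 0.09, limma adjusted p = 0.0184). That call was lost with equal totals (0.18), with quantile normalization (0.14), without floxed G-CSF replicate 1 (0.28) or 3 (0.27) and without LysMcre-labelled G-CSF replicate 1 (0.23). The responses differed by 0.30 (SE 0.13, limma adjusted p = 0.119).

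The ratio of Fth1 to Ftl1 normalized counts, which needs no scaling between libraries, was 3.82, 4.28 and 4.44 in LysMcre-labelled and 1.88, 1.76 and 1.76 in floxed libraries with G-CSF. Without G-CSF it was 0.718, 0.694 and 0.738 in LysMcre-labelled and 0.739, 0.686 and 0.707 in floxed libraries. The ratio was thus stable between replicates, alike between the untreated genotypes, and separated by genotype with G-CSF. It shows unequal change of the 2 mRNAs, since the genes differ in length. Fth1 took 0.906% ± 0.023 of a library in LysMcre-labelled and 0.344% ± 0.014 in floxed libraries with G-CSF, and 0.144% ± 0.015 in LysMcre-labelled and 0.138% ± 0.011 in floxed libraries without it (SD, n = 3 each).

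Ferritin genes have near-identical processed copies, and how reads were split among them is not given in the sources used here. The copies in the table were far below the genes: Ftl1-ps1 averaged 325 ± 52.3 normalized counts and Fth-ps2 39.7 ± 0.765 in LysMcre-labelled libraries with G-CSF, where Fth1 averaged 226770.1 ± 4998 (SD, n = 3 each). The antisense gene Gm10252 overlaps Ftl1, and without a strand setting its reads cannot be told from those of Ftl1. Gm10252 averaged 215 ± 17.5 normalized counts in LysMcre-labelled and 153 ± 18.9 in floxed libraries with G-CSF, against 143 ± 26.6 in LysMcre-labelled and 130.1 ± 9.46 in floxed libraries without it (SD, n = 3 each).

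**Figure D2:**
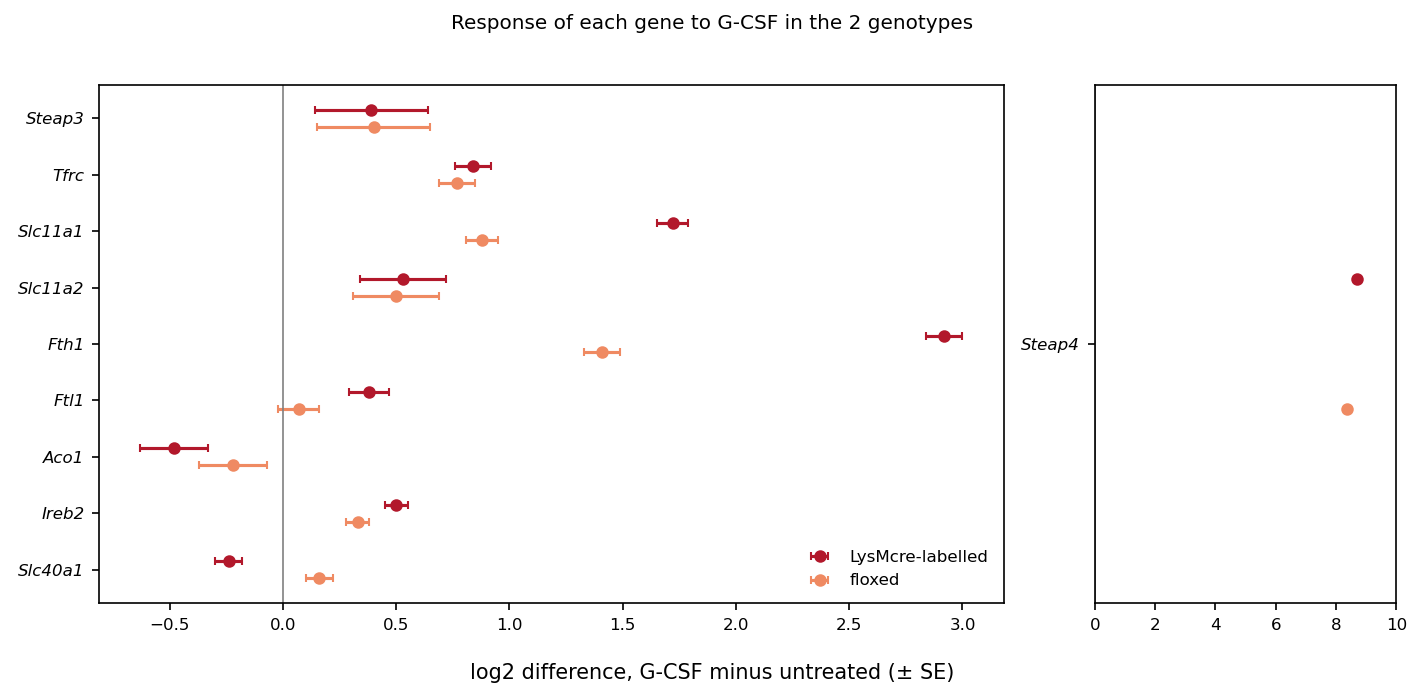
Log2 difference between libraries with and without G-CSF for each gene, with its standard error, in LysMcre-labelled (dark red) and floxed libraries (orange); Steap4 has an axis of its own and was not tested. Fth1 (2.92 and 1.41) and Slc11a1 (1.72 and 0.88) show the widest gaps between genotypes among the tested genes, and Slc40a1 lies on opposite sides of 0 (-0.24 and 0.16).

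Of the iron regulatory proteins, Ireb2 rose modestly and Aco1 did not. Ireb2 (ENSMUSG00000032293.8, chr9:54863789-54912530, plus strand), whose protein IRP2 is broken down when iron is plentiful, had 2885, 2737 and 2865 normalized counts in LysMcre-labelled and 2443, 2458 and 2629.7 in floxed libraries with G-CSF. Untreated, it had 1986, 1964 and 2068 in LysMcre-labelled and 1983, 1998 and 2009 in floxed libraries. Its untreated groups overlapped and its G-CSF groups did not. Ireb2 was 1.41-fold higher with G-CSF in LysMcre-labelled libraries (log2 difference 0.50, SE 0.05, limma adjusted p = 2.95e-07) and 1.26-fold higher in floxed libraries (log2 0.33, SE 0.05, limma adjusted p = 4.05e-05). With G-CSF, LysMcre-labelled libraries were 1.13-fold above floxed ones (log2 0.17, SE 0.05, limma adjusted p = 0.0116), a call lost with equal totals (0.05) and quantile normalization (0.12). The responses differed by 0.17 (SE 0.07, limma adjusted p = 0.103).

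Aco1 (ENSMUSG00000028405.9, chr4:40143081-40198338, plus strand) encodes IRP1, which is a cytosolic aconitase while it holds an iron-sulphur cluster and binds RNA when it does not. It had 218, 247 and 169.6 normalized counts in LysMcre-labelled libraries with G-CSF, against 329, 287 and 263 in LysMcre-labelled libraries without it. In floxed libraries it had 189.6, 258 and 246 with G-CSF, against 239.8, 274 and 293 without it. The LysMcre-labelled groups did not overlap and the floxed groups did. Aco1 was 1.39-fold lower with G-CSF in LysMcre-labelled libraries (log2 difference -0.48, SE 0.15, limma adjusted p = 0.0105), a call lost without LysMcre-labelled untreated replicate 1 (-0.39) and without LysMcre-labelled G-CSF replicate 3 (-0.33). In floxed libraries the log2 difference was -0.22 (SE 0.15, limma adjusted p = 0.233), and the responses differed by -0.25 (SE 0.21, limma adjusted p = 0.456).

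Slc40a1 (ENSMUSG00000025993.10, chr1:45908068-45926523, minus strand) encodes ferroportin, the only known cellular iron exporter, which macrophages use to return iron from red cells to the blood. It had 8854, 7801 and 8778 normalized counts in LysMcre-labelled and 11204, 11803 and 10670.4 in floxed libraries with G-CSF. In the absence of G-CSF it had 9894, 10022 and 9979 in LysMcre-labelled and 10267, 9863 and 10088 in floxed libraries. The LysMcre-labelled G-CSF libraries were the lowest 3 of the 12 and the floxed G-CSF libraries the highest 3. Slc40a1 was 1.33-fold lower in LysMcre-labelled than in floxed libraries with G-CSF (log2 -0.41, SE 0.06, limma adjusted p = 5.05e-05). It was 1.18-fold lower with G-CSF in LysMcre-labelled libraries (log2 difference -0.24, SE 0.06, limma adjusted p = 0.00221), and the responses differed by -0.39 (SE 0.08, limma adjusted p = 0.00258). These 3 calls held in every alternative run.

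In floxed libraries, Slc40a1 was 1.11-fold higher with G-CSF (log2 0.16, SE 0.06, limma adjusted p = 0.0364). That call was lost in 8 of 23 alternatives, 1 of which turned its sign (quantile normalization, -0.09). It was lost with equal totals (0.06), with the replicate number as a block (0.16), without floxed untreated replicate 1 (0.17), 2 (0.14) or 3 (0.16) and without floxed G-CSF replicate 1 (0.16) or 2 (0.12).

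Counted over the set, 8 of the 9 tested genes passed 0.05 with G-CSF in LysMcre-labelled libraries, 6 higher (Fth1, Slc11a1, Tfrc, Slc11a2, Ireb2 and Ftl1) and 2 lower (Aco1 and Slc40a1), where 62.6% of all 13915 genes passed (31.1% higher and 31.6% lower). In floxed libraries, 6 of the 9 passed, all higher (Fth1, Slc11a1, Tfrc, Slc11a2, Ireb2 and Slc40a1), where 48.8% of all genes passed (24.1% higher and 24.6% lower). The median log2 difference of the 9 genes was 0.50 in LysMcre-labelled and 0.40 in floxed libraries, against a median of all genes within 0.01 of 0 in each. These comparisons share no library with each other, but each shares libraries with the genotype contrasts. Since so many genes changed with G-CSF, the counts alone do not set the iron genes apart. The set was also chosen with earlier results of these data known.

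With G-CSF, 6 of the 10 genes differed between LysMcre-labelled and floxed libraries, 5 higher (Fth1, Steap4, Slc11a1, Ftl1 and Ireb2) and 1 lower (Slc40a1), where 36% of all genes passed (17.1% higher and 18.9% lower). The median log2 difference over the 10 was 0.13. Without G-CSF, none of the 9 genes other than Steap4 passed in limma, edgeR or DESeq2, and 0 of these 9 had an unadjusted limma p under 0.05. Their log2 differences without G-CSF lay between -0.06 for Slc11a1 and 0.12 for Aco1. The difference of the G-CSF responses passed for 3 of the 9 tested genes (Fth1 and Slc11a1, more positive in LysMcre-labelled libraries, and Slc40a1, more negative), where 22.4% of all genes passed (10.9% more positive and 11.5% more negative); for Steap4 it was 0.30 and was not tested.

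**Figure D3:**
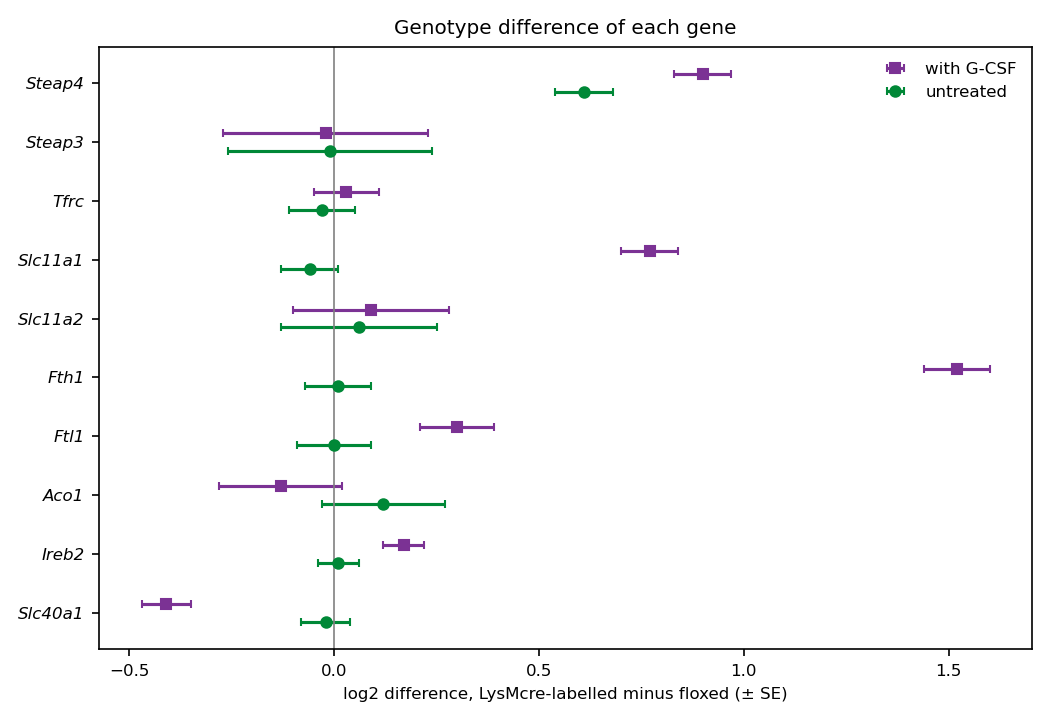
Log2 difference between LysMcre-labelled and floxed libraries for each gene, with its standard error, with G-CSF (purple squares) and without it (green circles). Without G-CSF, every gene but Steap4 (0.61) lies between -0.06 and 0.12, and with G-CSF Fth1 (1.52), Steap4 (0.90) and Slc11a1 (0.77) lie highest and Slc40a1 (-0.41) lowest.

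Levels of different genes were compared as normalized counts per kilobase of the principal annotated transcript. In LysMcre-labelled libraries with G-CSF the order was Fth1 (151787 ± 3345), Ftl1 (56264 ± 4939.7), Steap4 (11135 ± 452), Slc11a1 (7070.2 ± 184), Slc40a1, Ireb2, Tfrc, Aco1, Slc11a2 and Steap3 (8.39 ± 1.06; SD, n = 3 each). The order was the same in floxed libraries with G-CSF, where Fth1 stood at 53133 ± 3003 and Steap4 at 5961 ± 380.3 normalized counts per kilobase (SD, n = 3 each). Without G-CSF, Ftl1 came before Fth1 and Steap4 took the ninth place, above Steap3, at 26.9 ± 1.72 in LysMcre-labelled and 17.6 ± 1.69 normalized counts per kilobase in floxed libraries (SD, n = 3 each). Steap4 thus moved past 6 of the 10 genes to the third place, a description only, since its response to G-CSF placed it in the set. Neighbours in the order did not overlap between libraries, except Aco1 and Slc11a2 with G-CSF in both genotypes.

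The order of some neighbours depended on the length used. With the summed length of all annotated exons, which counts 3469 bases for Fth1 in place of 1494, Ftl1 stood above Fth1 in floxed libraries with G-CSF. Slc11a1 then stood above Slc40a1, and Steap4 above Slc11a2, in the untreated groups. Steap4 has 1 annotated length, 3155 bases, and held the third place with G-CSF by both definitions.

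**Figure D4:**
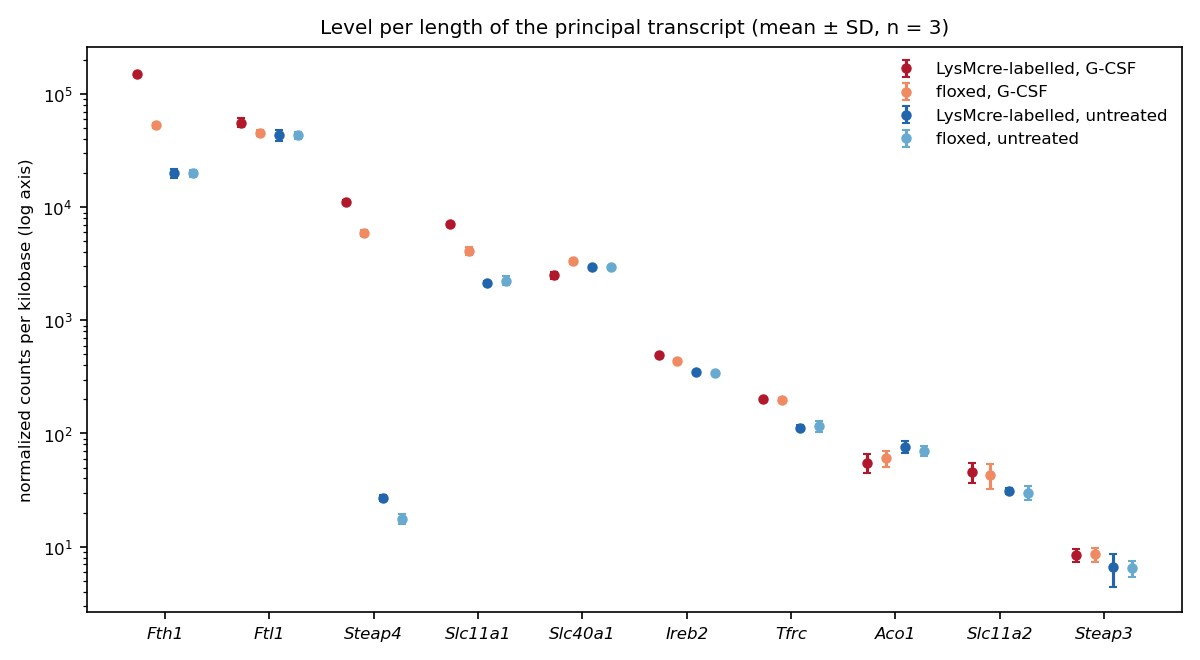
Mean normalized counts per kilobase of the principal transcript on a log axis, with SD (n = 3), for each gene and group, ordered by the level in LysMcre-labelled libraries with G-CSF. Steap4, placed in the set for its response to G-CSF, has the widest span of the 10, at 11135 in LysMcre-labelled libraries with G-CSF and 17.6 in floxed untreated libraries.

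The other genes of iron and haem metabolism were taken from 8 lists of 79 genes, of which 64 were in the table and all 64 were tested. With G-CSF, 41 passed in LysMcre-labelled libraries, 23 higher and 18 lower, and 34 passed in floxed libraries, 19 higher and 15 lower. Between genotypes with G-CSF, 30 of 64 passed, 15 in each direction, and 24 passed for the difference of the responses, 14 higher and 10 lower. These shares of 64.1%, 53.1%, 46.9% and 37.5% stand beside 62.6%, 48.8%, 36% and 22.4% of all genes, and no list was tested against other genes. Without G-CSF, 0 of the 64 differed between genotypes in limma and in edgeR, 2 had an unadjusted limma p under 0.05, and DESeq2 called 1, Ciapin1.

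Genes that govern ferritin and the regulatory proteins moved in both directions. Fbxl5, the iron-sensing subunit of the ligase that marks IRP2 for destruction, averaged 47893 ± 3123 normalized counts in LysMcre-labelled and 35712 ± 758 in floxed libraries with G-CSF, against 5131 ± 550.4 in LysMcre-labelled and 5244 ± 234 in floxed libraries without it (SD, n = 3 each). It was 9.36-fold higher with G-CSF in LysMcre-labelled (log2 3.23, SE 0.07, limma adjusted p = 1.58e-14) and 6.81-fold higher in floxed libraries (log2 2.77, SE 0.07, limma adjusted p = 2.39e-13). Ncoa4, the receptor that carries ferritin to lysosomes for breakdown, averaged 868 ± 8.82 in LysMcre-labelled and 1300.1 ± 64.4 in floxed libraries with G-CSF, against 3943 ± 186 in LysMcre-labelled and 4324 ± 237 in floxed libraries without it (SD, n = 3 each). It was 4.54-fold lower with G-CSF in LysMcre-labelled (log2 -2.18, SE 0.06, limma adjusted p = 6.09e-14) and 3.32-fold lower in floxed libraries (log2 -1.73, SE 0.06, limma adjusted p = 2.21e-12). In the same libraries Fth1 was higher with G-CSF. Of the 5 listed genes of this group that were tested, 4 passed with G-CSF in LysMcre-labelled libraries (Fbxl5 and the iron chaperone Pcbp1 higher, Ncoa4 and Herc2 lower). In floxed libraries 3 passed (Fbxl5 higher, Ncoa4 and Herc2 lower). These shares of 80% and 60% stand beside 62.6% and 48.8% of all genes.

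Metal transporters outside the set also moved. Slc39a14 encodes ZIP14, which imports zinc, iron not bound to transferrin and manganese. It averaged 668 ± 47.0 normalized counts in LysMcre-labelled and 204 ± 24.3 in floxed libraries with G-CSF, against 52.5 ± 2.98 in LysMcre-labelled and 45.4 ± 8.11 in floxed libraries without it (SD, n = 3 each). The log2 difference with G-CSF was 3.64 in LysMcre-labelled (SE 0.14, limma adjusted p = 3.01e-12) and 2.15 in floxed libraries (SE 0.14, limma adjusted p = 3.4e-09), and the responses differed by 1.49 (SE 0.19, limma adjusted p = 4.96e-05). The related transporter gene Slc39a8 averaged 63.7 ± 6.63 in LysMcre-labelled and 52.1 ± 1.28 in floxed libraries with G-CSF, against 8.80 ± 6.40 in LysMcre-labelled and 9.27 ± 3.13 in floxed libraries without it (SD, n = 3 each), where 1 library was below the value of 3 reads. Its log2 differences with G-CSF were 3.01 (SE 0.45, limma adjusted p = 2.6e-05) in LysMcre-labelled and 2.42 (SE 0.45, limma adjusted p = 0.000325) in floxed libraries. Slc48a1, the transporter that carries haem out of lysosomes, was 2.14-fold lower with G-CSF in LysMcre-labelled libraries (log2 difference -1.10, SE 0.10, limma adjusted p = 8e-08) and 1.48-fold lower in floxed libraries (log2 -0.57, SE 0.10, limma adjusted p = 0.000149).

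Among carriers, lactoferrin mRNA fell with G-CSF in both genotypes, and transferrin mRNA rose in LysMcre-labelled libraries and did not pass the test in floxed ones. Ltf, the iron-binding protein of secondary granules, averaged 37729 ± 4612 normalized counts in LysMcre-labelled and 73096 ± 13022 in floxed libraries with G-CSF, against 222970.0 ± 39033 in LysMcre-labelled and 242943 ± 28101 in floxed libraries without it (SD, n = 3 each). The log2 difference with G-CSF was -2.56 in LysMcre-labelled (SE 0.14, limma adjusted p = 4.16e-10) and -1.74 in floxed libraries (SE 0.14, limma adjusted p = 7.87e-08). Trf, which encodes transferrin, averaged 1727 ± 217 in LysMcre-labelled and 562 ± 54.5 in floxed libraries with G-CSF, against 632 ± 100.3 in LysMcre-labelled and 586 ± 65.8 in floxed libraries without it (SD, n = 3 each). Its log2 difference with G-CSF was 1.45 in LysMcre-labelled (SE 0.12, limma adjusted p = 4.53e-08) and -0.06 in floxed libraries (SE 0.12, limma adjusted p = 0.724). With G-CSF, Trf was 1.62 higher on the log2 scale in LysMcre-labelled than in floxed libraries (SE 0.12, limma adjusted p = 8.87e-08), and Ltf differed by -0.95 (SE 0.14, limma adjusted p = 0.000103). Of the 8 carriers and receptors tested, 3 were higher and 1 lower with G-CSF in LysMcre-labelled libraries, and 2 were higher and 1 lower in floxed libraries; these shares of 50% and 37.5% lie below the 62.6% and 48.8% of all genes. Of the granule genes on the neutrophil list, Ngp and Camp fell in both genotypes, and Mmp8 passed as lower in LysMcre-labelled libraries only. Ngp averaged 90799 ± 14011 normalized counts in LysMcre-labelled and 157032 ± 18098 in floxed libraries with G-CSF, against 317721 ± 58022 in LysMcre-labelled and 343519.5 ± 42122 in floxed libraries without it (SD, n = 3 each). Lcn2, a granule gene among the carriers, did not pass with G-CSF. Its log2 difference was -0.13 in LysMcre-labelled (SE 0.13, limma adjusted p = 0.396) and 0.22 in floxed libraries (SE 0.13, limma adjusted p = 0.167). What part the makeup of the sorted cells had in the levels of Ltf and Ngp was not tested.

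The haem breakdown list held enzymes and also the transporter gene Abcg2 and the regulators Bach1 and Nfe2l2. Of its 7 tested genes, 6 were higher with G-CSF in LysMcre-labelled libraries (Hmox1, Hmox2, Blvra, Blvrb, Bach1 and Nfe2l2). In floxed libraries 5 were higher (Hmox1, Blvrb, Abcg2, Bach1 and Nfe2l2). None was lower in either genotype, where 31.1% and 24.1% of all genes were higher. Whether the list differs from other genes was not tested. Hmox1, the inducible haem oxygenase that frees iron from haem, averaged 9139 ± 255 normalized counts in LysMcre-labelled and 6034 ± 265 in floxed libraries with G-CSF, against 1690.2 ± 315 in LysMcre-labelled and 1651 ± 296 in floxed libraries without it (SD, n = 3 each). Its log2 difference with G-CSF was 2.45 in LysMcre-labelled (SE 0.13, limma adjusted p = 1.49e-10) and 1.88 in floxed libraries (SE 0.13, limma adjusted p = 7.58e-09). Haem synthesis was split, with 3 higher and 3 lower of 10 in LysMcre-labelled and 4 higher and 2 lower in floxed libraries. That is a share of 60% in each, beside 62.6% and 48.8% of all genes. Alas1, its first enzyme outside red cells, was 6.70-fold higher with G-CSF in LysMcre-labelled (log2 2.74, SE 0.07, limma adjusted p = 6.15e-14) and 4.30-fold higher in floxed libraries (log2 2.10, SE 0.07, limma adjusted p = 3.34e-12). Fech, its last enzyme, was lower in LysMcre-labelled than in floxed libraries with G-CSF (log2 -0.61, SE 0.10, limma adjusted p = 0.000215).

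Red cell precursors carry high levels of Tfrc, Slc40a1 and haem synthesis genes, and 7 of 12 erythroid markers were in the table, none at 0. The summed level of the 7 was 189.5 to 242 normalized counts in LysMcre-labelled and 249 to 359.7 in floxed libraries with G-CSF, and 199.8 to 1651 in LysMcre-labelled and 301 to 1071 in floxed libraries without it. The highest sums were in replicate 3 of both untreated groups. None of the 7 passed in limma in any comparison, and 0 had an unadjusted limma p under 0.05; edgeR called 3 and DESeq2 called 2 in LysMcre-labelled libraries with against without G-CSF. Alas2, the haem synthesis enzyme of red cells, had 8.09, 11.8 and 5.37 normalized counts in LysMcre-labelled and 9.75, 5.25 and 11.3 in floxed libraries with G-CSF, and 5.26, 12.9 and 45.5 in LysMcre-labelled and 14.9, 20.6 and 32.9 in floxed libraries without it. Its highest values, too, were in the untreated replicate 3 libraries. The part of red cell precursors in the levels of Tfrc, Slc40a1 and the haem genes was not tested.

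Genes of iron-sulphur cluster assembly in mitochondria passed at about the share of all genes: 11 of 18 listed genes passed with G-CSF in LysMcre-labelled libraries, 4 higher and 7 lower, and 9 of 18 in floxed libraries, 3 higher and 6 lower, shares of 61.1% and 50% beside 62.6% and 48.8%. Fdxr, the reductase that feeds electrons to cluster assembly, averaged 442 ± 30.5 normalized counts in LysMcre-labelled and 259.8 ± 25.6 in floxed libraries with G-CSF, against 191 ± 26.8 in LysMcre-labelled and 192 ± 17.8 in floxed libraries without it (SD, n = 3 each). It was higher in LysMcre-labelled than in floxed libraries with G-CSF (log2 0.77, SE 0.11, limma adjusted p = 8.63e-05). Nfu1, a late carrier of clusters, was 1.58-fold lower with G-CSF in floxed libraries (log2 -0.66, SE 0.09, limma adjusted p = 2.38e-05). In the cytosol, 3 of 8 genes passed in LysMcre-labelled libraries, 2 higher and 1 lower, and 2 of 8 in floxed libraries, 1 in each direction. Both shares, 37.5% and 25%, lie below the 62.6% and 48.8% of all genes. Of the 4 tested genes of export and the hepcidin axis, 3 passed in LysMcre-labelled libraries (Smad4 higher, Bmpr1a and Bmpr2 lower). In floxed libraries 2 passed (Smad4 higher, Bmpr1a lower). The shares were 75% and 50%, beside 62.6% and 48.8% of all genes.

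**Figure D5:**
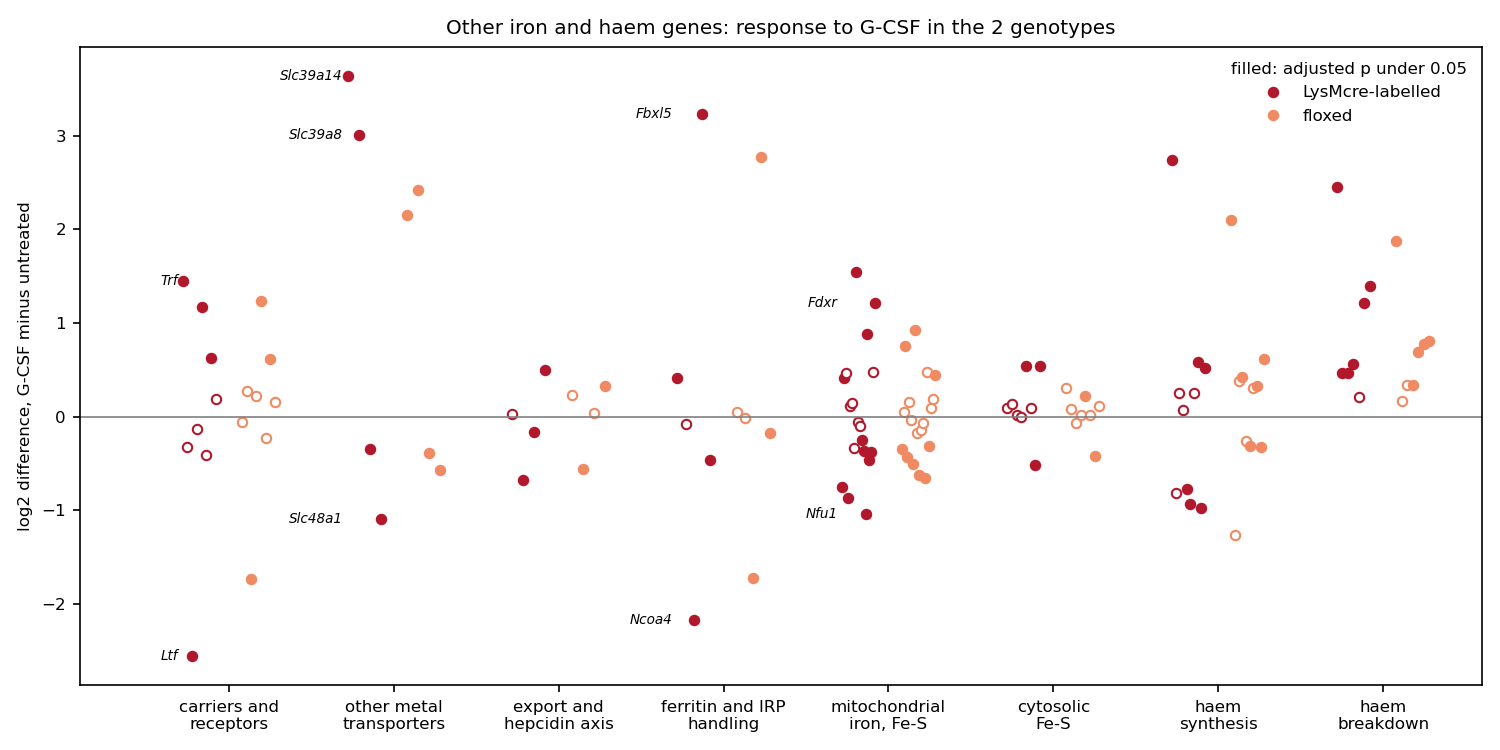
Log2 difference between libraries with and without G-CSF for the 64 other iron and haem genes by list, in LysMcre-labelled (dark red) and floxed libraries (orange); filled points passed an adjusted p of 0.05. Slc39a14 (3.64), Fbxl5 (3.23) and Slc39a8 (3.01) lie highest and Ltf (-2.56) and Ncoa4 (-2.18) lowest in LysMcre-labelled libraries; names are set beside those points.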

How the data were processed

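Total RNA of sorted neutrophils was sequenced in 4 groups of 3 libraries. The deposited values are a signal unit, read counts per gene that the authors divided by 1 size factor per library; this was read from the values, since 100.0% were whole multiples of a library's step at a tolerance of 0.01 read and the steps equalled median-of-ratios factors to 4.3e-11. The submitters' processing notes name build mm10. No aligner, read counter, annotation release or strand setting is given in the sources used here, so antisense reads may be included. The table also had 2 columns without a sample, which held no values, and 17 gene names had become dates, none of them one of the 10 genes. For LysMcre-labelled untreated replicate 2 the column header has a 3 where its title has a 2; the title was followed.

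Values were taken as log2(value + 1), genes with a mean under 10 were left out (13915 of 13935 kept, all 10 genes included), and the 4 groups were fitted together in limma 3.58.1 (R 4.3.3) with a trended prior. P-values are two-sided and Benjamini-Hochberg adjusted over all genes tested, with a threshold of 0.05. The design assumed values that are not counts; since reads could be recovered, edgeR 4.0.16 and DESeq2 1.42.0 were run on them as alternatives. The members and gene lists were chosen with earlier results of these data known. Named are all 10 genes; of the other iron and haem genes, the 3 largest rises and falls past the threshold per contrast whose higher group averaged 50 or more; Socs3, Lyz2 and the ferritin copies; and the 5 genes most like Steap4 among those with a mean of at least 50. Hmox1, Hmox2, Blvra, Blvrb, Abcg2, Bach1, Nfe2l2, Alas1, Alas2, Pcbp1, Herc2, Ciapin1, Smad4, Bmpr1a, Bmpr2, Lcn2 and Mmp8 were named after their values were seen. Transcripts, coordinates and lengths come from GENCODE M21 and promoters from RefSeq GRCm38.p6, both of the same build as mm10. Scripts were tested on simulated data. Equal totals, TMM and quantile scaling, pseudocounts, filters, a replicate block, fits of 2 groups and leaving out each library were tried.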

Additional observations from a re-analysis of the deposited data

Results flagged for a closer look

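These genes met the test of a difference between the G-CSF response in LysMcre-labelled and in floxed libraries, the interaction term of the limma fit; values are the LysMcre-labelled response minus the floxed response on the log2(value + 1) scale. Among the 10 genes, Fth1 differed by 1.50 (SE 0.12, limma adjusted p = 5.1e-07), Slc11a1 by 0.84 (SE 0.10, limma adjusted p = 2.3e-05) and Slc40a1 by -0.39 (SE 0.08, limma adjusted p = 0.00258). Each kept its sign and its call in all 22 alternatives. For Fth1 and Slc11a1 both responses were increases and the LysMcre-labelled one was larger, at 2.92 in LysMcre-labelled and 1.41 in floxed libraries for Fth1 and at 1.72 in LysMcre-labelled and 0.88 in floxed libraries for Slc11a1. For Slc40a1 the responses had opposite signs, -0.24 in LysMcre-labelled and 0.16 in floxed libraries.

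Among the other iron and haem genes, the 3 highest and the 3 lowest that passed were as follows. Trf differed by 1.51 (SE 0.17, limma adjusted p = 1.53e-05), Slc39a14 by 1.49 (SE 0.19, limma adjusted p = 4.96e-05) and Fdxr by 0.78 (SE 0.16, limma adjusted p = 0.00269). Ltf differed by -0.82 (SE 0.20, limma adjusted p = 0.00928), Fech by -0.66 (SE 0.14, limma adjusted p = 0.00342) and Urod, an enzyme of haem synthesis, by -0.61 (SE 0.11, limma adjusted p = 0.00121).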

How the results depend on the processing

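Equal totals moved the median of all genes to -0.26 (G-CSF, LysMcre-labelled), -0.09 (G-CSF, floxed), -0.13 (genotype, G-CSF), -0.18 (interaction) and 0.04 (genotype, untreated); with TMM and quantile scaling it stayed within 0.02 of 0. The set's counts of called genes were 6 and 4 with G-CSF (LysMcre-labelled and floxed) and 4 by genotype with G-CSF for equal totals, and 7, 4 and 4 for quantile scaling, against 8, 6 and 6. Leaving out 1 library, the genes called of the set numbered 7 to 8 and 4 to 6 with G-CSF (LysMcre-labelled and floxed), 5 to 6 and 1 to 1 by genotype (with G-CSF and without) and 3 to 3 for the interaction; of the other iron genes, 38 to 43, 29 to 35, 29 to 31, 0 to 1 and 19 to 23. In the untreated genotype contrast the count of the set was 0 with edgeR and 0 with only the untreated groups; that of the other genes was 1 with DESeq2 and 1 (Ciapin1) without LysMcre-labelled untreated replicate 2. Some log2 differences turned in sign. With equal totals they were -0.0858 (Tfrc) and -0.0288 (Slc11a2) by genotype with G-CSF, -0.10 (Tfrc), -0.13 (Slc11a2) and -0.002 (Ireb2) for the interaction, and -0.0192 (Ftl1, G-CSF, floxed). With quantile normalization they were -0.14 and -0.19 (Ftl1, G-CSF, LysMcre-labelled and floxed), -0.0913 (Slc40a1, G-CSF, floxed) and 0.0152 (Steap3, interaction), and with TMM 0.0046 (Steap3, interaction). Leaving out 1 library, the genotype difference with G-CSF ranged -0.14 to 0.0737 (Steap3), -0.001 to 0.0517 (Tfrc), -0.10 to 0.27 (Slc11a2) and -0.27 to 0.018 (Aco1), and the interaction -0.28 to 0.20 (Steap3), -0.0232 to 0.14 (Tfrc) and -0.15 to 0.21 (Slc11a2). None of these but Ftl1 with G-CSF in LysMcre-labelled and Slc40a1 in floxed libraries had passed 0.05; the cause was not tested. A fit that leaves out 1 library keeps 2 in that group. The replicate numbers are not known to pair samples. Deviations of same-numbered libraries correlated at -0.178 to 0.321 over 18 pairs, 4 of them over 0.1. The 36 other pairs correlated at -0.282 to 0.196, 6 of them over 0.1. Same-numbered libraries with and without G-CSF correlated at 0.321, 0.199 and 0.061 in floxed and at 0.214, -0.0317 and 0.0304 in LysMcre-labelled libraries. The replicate block joins the same number across genotypes, so pairing within a genotype was not fitted. With the replicate block the counts of the set were 8, 5, 6, 1 and 3, Slc40a1 with G-CSF in floxed libraries being lost, and those of the other genes 41, 34, 30, 0 and 24. Slc39a8 in 1 untreated library lay below the value of 3 reads.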
